A study of Homo sapiens with 4 samples.

Results

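Integrins and the focal adhesion proteins that tie them to actin were described in the T24T and UMUC3 bladder cancer cell lines. The set was chosen by gene symbol and holds 34 of the 32973 genes listed in the expression table. It comprises 16 integrin alpha subunits, 8 integrin beta subunits and 10 adhesion proteins, namely TLN1, TLN2, FERMT1, FERMT2, ILK, PARVA, VCL, PXN, ZYX and PTK2. The alpha subunit genes ITGAL and ITGA8 fit the naming rule but were not analysed here. T24T and UMUC3 are human bladder cancer lines, and each was given by stable transfection either a plasmid that overexpresses BCUC-1 or the empty vector. BCUC-1 is the circular RNA hsa_circ_0001361, which is formed from exons of FNDC3B. The 4 groups were T24T with BCUC-1, T24T with vector, UMUC3 with BCUC-1 and UMUC3 with vector, with 1 library of total RNA each. All cells grew in the same serum-containing RPMI-1640 medium with penicillin and streptomycin. The study set out to find genes that respond to BCUC-1. The labels do not say whether the transfected cells were clones or pools, nor whether any libraries came from separate cultures, so p-values measure only the spread between these libraries.

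Integrins are receptors made of an alpha and a beta chain, and the pairing decides which matrix protein or neighbouring cell is bound. Talin and kindlin bind the tail of the beta chain inside the cell and switch the receptor on. Vinculin then strengthens the link to actin, the scaffold of ILK and parvin provides a further link, and paxillin, focal adhesion kinase and zyxin pass on signals and tension. In the urothelium the laminin receptors hold basal cells to the basement membrane, and the balance of subunits is known to shift in invasive bladder cancer.

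Levels are exonic RPKM, reads per kilobase of exon per 1000000 assigned reads, so they may be compared between genes. The values were whole multiples of 1 read in every library, and the recovered depths were 22730112 to 26497894 assigned reads. Mitochondrial genes took 3.84% and 5.30% of reads in the BCUC-1 libraries of T24T and UMUC3, and 3.92% and 6.33% in their vector libraries. FNDC3B stood at 5.40 and 6.19 RPKM in the BCUC-1 libraries of T24T and UMUC3, against 5.68 and 6.27 RPKM in their vector libraries. This gene-level value does not measure the circle, and no level of BCUC-1 is given. Of the keratin genes of simple epithelium, KRT8 stood at 146 and 133 RPKM in T24T and 13.2 and 13.0 RPKM in UMUC3. KRT18 stood at 88.2 and 81.5 RPKM in T24T and 42.1 and 39.9 RPKM in UMUC3, whereas KRT19 had at most 2 reads in any library. Several defining markers of urothelium were near nothing: KRT5, a keratin of its basal cells, had at most 3 reads in any library, KRT20 and UPK3A, of its umbrella cells, at most 1, and the transcription factor GATA3 at most 22. The uroplakin gene UPK1B had 55 and 48 reads in T24T and 0 in UMUC3, UPK2 had 9 to 25 reads, and the nuclear receptor gene PPARG stood between 1.60 and 1.87 RPKM in all 4 libraries. The 13 urothelial and keratin markers summed to 263 and 246 RPKM in T24T against 60.8 and 58.6 RPKM in UMUC3, and in the limma test described further on 3 of the 4 tested were higher in T24T and 0 lower, where 40.8% of all genes tested were higher and 29.6% lower. Most of that sum was the keratin genes KRT8, KRT18 and KRT7, which were also the 3 called. The 7 mesenchymal markers measured summed to 102 and 97.7 RPKM in T24T against 297 and 265 RPKM in UMUC3. Most of this was the vimentin gene VIM, at 87.0 and 82.9 RPKM in T24T against 267 and 234 RPKM in UMUC3. Of the 5 tested, 2 (CDH2 and FN1) were higher and 3 (VIM, ZEB1 and ZEB2) lower in T24T. FN1 and ZEB2 entered that test only through the line in which they were high, so their calls are no separate support. Of 14 leukocyte and platelet markers 8 were analysed, and their summed level ran from 9.11 to 9.71 RPKM in T24T and from 120.1 to 125.9 RPKM in UMUC3. Most of it was CD68, a lysosomal protein gene that macrophages express highly, at 6.78 and 7.45 RPKM in T24T and 124 and 119 RPKM in UMUC3. Other defining markers were close to nothing: CD14, CSF1R, GP9 and SELP had at most 6 reads in any library.

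The 3 members shown next were those with at least 1 RPKM in both libraries of one line and at most 0.1 RPKM in both libraries of the other, and their levels were what chose them. Each line gives the RefSeq promoter on GRCh38.p14, from 250 bases before the RefSeq start to 50 after it, 5′ to 3′ on the gene's own strand. For these 3 genes that start lies inside the annotated span over which reads were counted, not at its edge. Capitals mark CpG dinucleotides, the sites at which DNA methylation occurs in promoters. ITGA10 and ITGB8 were expressed in T24T, and ITGA4 in UMUC3.
ITGA10: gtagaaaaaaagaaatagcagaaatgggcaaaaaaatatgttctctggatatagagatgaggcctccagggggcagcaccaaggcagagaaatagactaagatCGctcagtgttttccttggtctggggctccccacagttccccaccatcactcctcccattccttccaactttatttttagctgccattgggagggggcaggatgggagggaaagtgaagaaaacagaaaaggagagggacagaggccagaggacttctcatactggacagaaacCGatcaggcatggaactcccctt
ITGB8: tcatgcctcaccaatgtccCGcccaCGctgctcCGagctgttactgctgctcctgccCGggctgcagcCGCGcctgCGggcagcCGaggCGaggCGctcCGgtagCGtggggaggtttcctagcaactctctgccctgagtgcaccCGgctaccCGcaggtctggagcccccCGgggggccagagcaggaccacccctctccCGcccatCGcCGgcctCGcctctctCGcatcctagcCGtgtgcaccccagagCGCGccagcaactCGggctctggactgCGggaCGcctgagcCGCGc
ITGA4: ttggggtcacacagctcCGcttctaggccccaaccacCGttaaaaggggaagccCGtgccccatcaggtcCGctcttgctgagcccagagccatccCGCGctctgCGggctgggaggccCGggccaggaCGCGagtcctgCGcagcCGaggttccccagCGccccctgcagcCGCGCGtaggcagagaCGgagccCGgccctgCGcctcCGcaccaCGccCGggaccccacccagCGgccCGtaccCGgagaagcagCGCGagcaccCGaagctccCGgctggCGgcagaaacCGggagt
The ITGA10 window, chr1:145910001-145910300 on the minus strand, was 48.7% GC and held 2 CpG, and 18.2% of the 35116 RefSeq promoters hold no more than that. The ITGB8 window, chr7:20330650-20330949 on the plus strand, was 71.7% GC and held 28 CpG, a count that 26.2% of promoters reach. The ITGA4 window, chr2:181457136-181457435 on the plus strand, was 72.3% GC and held 31 CpG, a count that 20.7% of promoters reach. ITGB8 and ITGA4, expressed in different lines, were thus both CpG-rich. Both strands were searched for the GC box GGGCGG, the CCAAT box CCAAT, the TATA box TATAAA and the AP-1 element TGANTCA. These occur in 44.95%, 34.6%, 11.5% and 7.71% of all promoters. ITGB8 held 2 GC boxes and 1 CCAAT box, ITGA10 held 1 CCAAT box, and ITGA4 held no match to the 4 motifs.

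ITGA10, a collagen-binding alpha subunit known from cartilage, stood at 3.08 and 3.35 RPKM in T24T with BCUC-1 and with vector, against 0.0975 and 0.0478 RPKM in UMUC3 with BCUC-1 and with vector. Its 961 reads in T24T and 22 in UMUC3 gave a T24T over UMUC3 ratio of 45.5 (95% interval 29.9 to 72.9). ITGB8, which pairs with the ITGAV product and activates latent TGF-beta, had 2.15 and 2.44 RPKM in T24T, against 0 and 0.00747 RPKM in UMUC3. That was 1644 reads against 3, a ratio of 571 (195 to 2770). ITGA4, a receptor subunit for fibronectin and for an endothelial adhesion molecule that is best known from leukocytes, ran the other way. It had 0.0107 and 0.00535 RPKM in T24T, or 3 reads in all, against 2.37 and 2.01 RPKM and 845 reads in UMUC3, a T24T over UMUC3 ratio of 0.00370 (0.000761 to 0.0108). That the lines do not overlap at these 3 genes follows from how they were chosen. In bulk RNA, fewer cells that express a gene and less of its RNA per cell cannot be told apart. These intervals, and those given for reads throughout, cover counting error only.

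**Figure D1:**
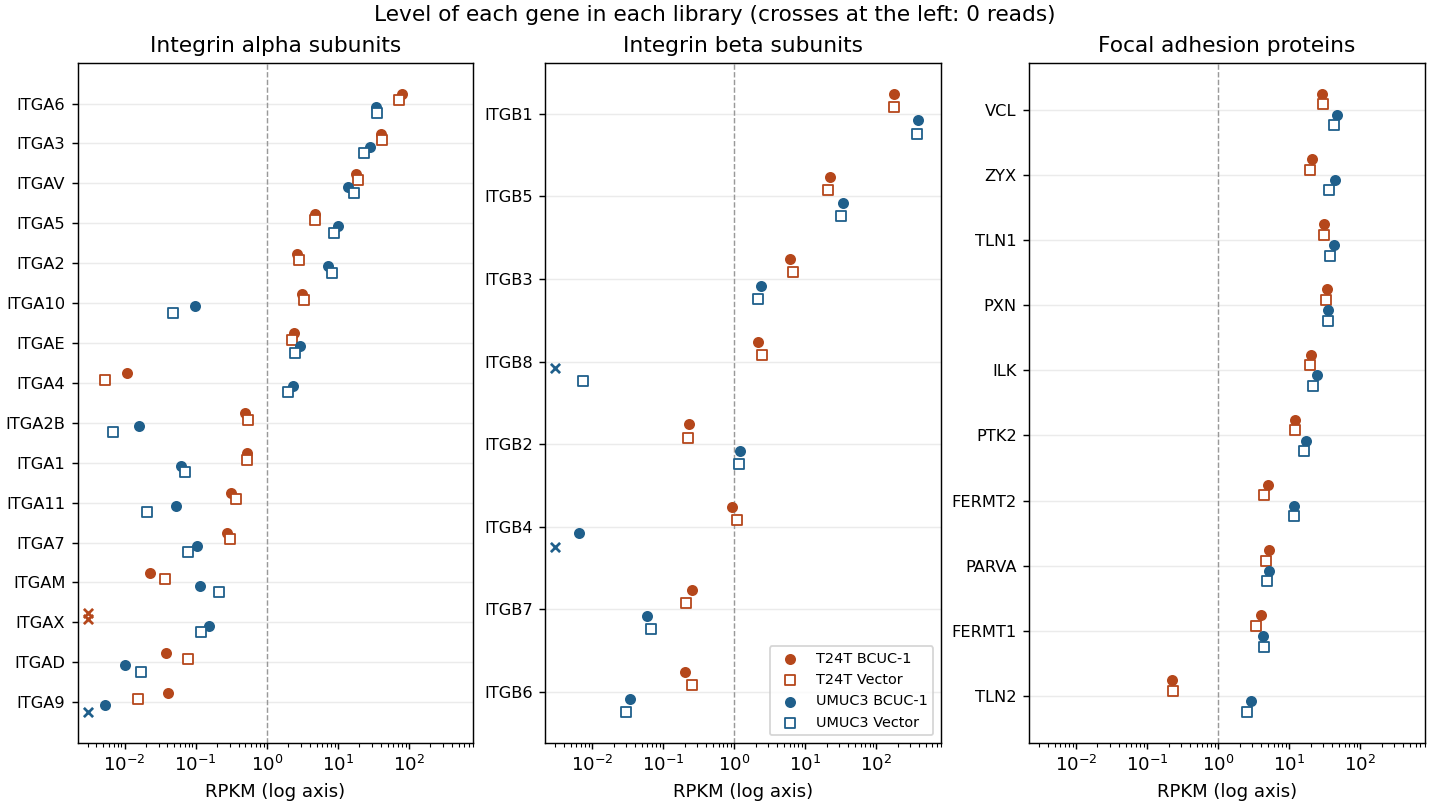
Level of each of the 34 genes in each library, as RPKM on a log axis, with filled circles for BCUC-1 and open squares for vector, T24T in orange and UMUC3 in blue; crosses at the left edge mark 0 reads and the dashed line marks 1 RPKM. The 2 libraries of a line lie close together for most genes, while ITGA10, ITGB8 and ITGB4 are high in T24T and ITGA4 and TLN2 are high in UMUC3.

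Of the 34 genes, 18 reached 1 RPKM in all 4 libraries and 10 stayed under 0.6 RPKM in all 4. A few subunits made up most of the integrin transcripts of each line. ITGB1, the common partner of most alpha subunits, made up 84.9% and 84.7% of the summed beta subunit RPKM in T24T with BCUC-1 and with vector, and 91.0% and 91.5% in UMUC3. ITGB5, a vitronectin receptor subunit that pairs with the ITGAV product, came next at 10.5% and 10.1% in T24T and 8.14% and 7.66% in UMUC3. Among alpha subunits the order ITGA6, ITGA3, ITGAV, ITGA5 was the same in all 4 libraries. ITGA6, a laminin receptor subunit, took 52.2% and 48.8% of the summed alpha RPKM in T24T and 34.7% and 36.3% in UMUC3. ITGA5, the fibronectin receptor subunit, took 3.10% and 3.21% in T24T and 9.89% and 8.92% in UMUC3. ITGA2, a collagen receptor subunit, took 1.74% and 1.91% in T24T and 7.21% and 8.58% in UMUC3. T24T thus had the larger laminin receptor share, and UMUC3 the larger fibronectin and collagen receptor shares, as transcripts. The summed alpha level was 154 and 147 RPKM in T24T against 100.01 and 97.4 RPKM in UMUC3. The summed beta level ran the other way, at 211 and 209 RPKM in T24T against 416 and 411 RPKM in UMUC3.

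**Figure D2:**
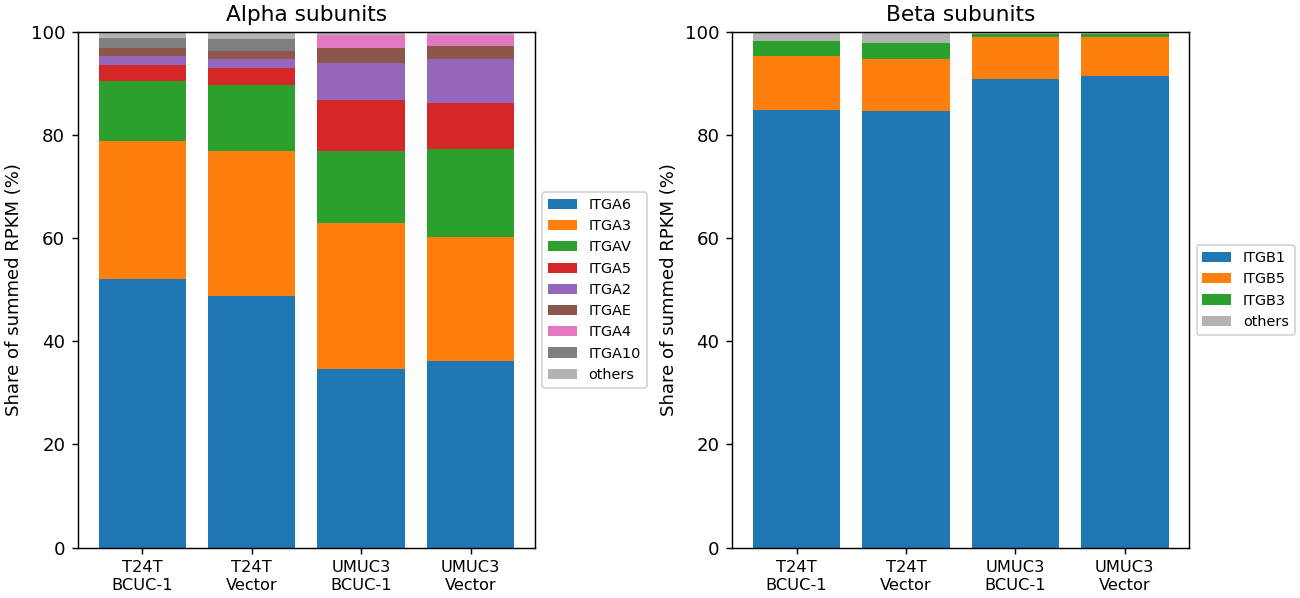
Share of the summed RPKM of the 16 alpha subunits (left) and the 8 beta subunits (right) taken by each gene, in percent, with 1 bar for each library. ITGA6 takes 52.2% and 48.8% in T24T against 34.7% and 36.3% in UMUC3, and ITGB1 takes over 84% of the beta subunit transcripts in every library.

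The difference between T24T and UMUC3 was tested with limma on log2(RPKM + 1), with treatment in the model, for the genes that reached 1 RPKM in at least 2 libraries. Of the 34 members 23 passed that filter, and 6 were higher and 13 lower in T24T at a Benjamini-Hochberg adjusted p of 0.05. ITGA10, ITGB8, ITGA4, TLN2 and ITGB2 passed it only through the line in which they were high, so their calls are no separate support. Over all 15415 genes tested, 40.8% were called higher and 29.6% lower, so the lines differ at most genes and a call for a single member is not unusual. The median difference was -0.35 over the members tested and 0.10 over all genes tested. By role, of the 8 alpha subunits tested 4 were higher and 3 lower, of the 5 beta subunits 2 were higher and 3 lower, and of the 10 adhesion proteins 0 were higher and 7 lower. The levels of the lines did not overlap at 33 of the 34 members. The share over all genes was not counted, so a lack of overlap sets no member apart.

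The 2 abundant laminin receptor subunits were both higher in T24T. ITGA6 (chr2:172427354-172506282, plus strand) stood at 80.3 and 71.9 RPKM in T24T with BCUC-1 and with vector, against 34.7 and 35.3 RPKM in UMUC3. Its difference on the log2(RPKM + 1) scale was 1.10 (SE 0.072, limma, Benjamini-Hochberg adjusted p = 2.63e-05). ITGA3 stood at 41.0 and 41.3 RPKM in T24T against 28.2 and 23.4 RPKM in UMUC3, a difference of 0.66 (SE 0.084, limma adjusted p = 0.000490). Neither gene had overlapping levels between the lines. ITGA10 differed by 1.97 (SE 0.10, limma adjusted p = 9.07e-06). ITGAV (chr2:186590065-186680901, plus strand), whose product binds vitronectin and latent TGF-beta, had 18.0 and 19.0 RPKM in T24T against 14.1 and 16.6 RPKM in UMUC3. Its difference of 0.26 (SE 0.077) had a limma adjusted p of 0.0220. That call was lost without T24T BCUC-1 (0.29), without T24T vector (0.22), without UMUC3 BCUC-1 (0.14), with equal medians (0.16), with quantile normalization (0.17) and with no filter on low values (0.26).

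Of the alpha subunits lower in T24T, ITGA2 had 2.67 and 2.81 RPKM there against 7.21 and 8.36 RPKM in UMUC3, a difference of -1.23 (SE 0.096, limma adjusted p = 5.49e-05). ITGA5 had 4.77 and 4.73 RPKM in T24T against 9.89 and 8.69 RPKM in UMUC3, a difference of -0.84 (SE 0.092, limma adjusted p = 0.000237). ITGA4 differed by -1.66 (SE 0.097, limma adjusted p = 1.61e-05). The lines did not overlap at ITGA2 and ITGA5, and at ITGA4 this followed from how it was chosen. ITGAE, whose product pairs with that of ITGB7 on T cells within epithelia and binds E-cadherin, had 2.39 and 2.29 RPKM in T24T against 2.93 and 2.50 RPKM in UMUC3. That difference of -0.15 (SE 0.10) did not pass, with a limma adjusted p of 0.219, though it did with quantile normalization (-0.28).

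Collagen receptors were thus split between the lines. ITGA2 was lower in T24T, whereas the related ITGA1, ITGA10 and ITGA11 had more reads there. ITGA1 had 0.523 and 0.528 RPKM in T24T against 0.0616 and 0.0711 RPKM in UMUC3, a ratio of summed reads of 7.87 (95% interval 6.02 to 10.5). ITGA11 had 0.312 and 0.373 RPKM in T24T against 0.0526 and 0.0208 RPKM in UMUC3, a ratio of 9.65 (6.0 to 16.4). The lines did not overlap at either gene, but both were far below ITGA2 in level. PELO shares 475 exonic bases with ITGA1 on the same strand and had 165 to 360 reads, so the reads of the 2 genes cannot be fully told apart.

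ITGB1 (chr10:32900319-33005792, minus strand) was the most abundant member in every library and lower in T24T, at 179 and 177 RPKM against 378 and 376 RPKM in UMUC3. Its difference was -1.08 (SE 0.063, limma adjusted p = 1.59e-05). ITGB5 had 22.1 and 21.1 RPKM in T24T against 33.9 and 31.5 RPKM in UMUC3, a difference of -0.57 (SE 0.067, limma adjusted p = 0.000326). ITGB3, a vitronectin and fibrinogen receptor subunit, ran the other way, with 5.99 and 6.68 RPKM in T24T against 2.38 and 2.18 RPKM in UMUC3. Its difference was 1.16 (SE 0.10, limma adjusted p = 0.000102). The annotated gene RP11-290H9.2 shares 2266 of the 4394 exonic bases of ITGB3 on the same strand, and its 391, 425, 150 and 168 reads in T24T with BCUC-1, T24T with vector, UMUC3 with BCUC-1 and UMUC3 with vector followed those of ITGB3. ITGB8 differed by 1.71 (SE 0.095, limma adjusted p = 1.32e-05).

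Thus the partners of ITGAV did not move as 1 group: ITGB3 and ITGB8 were higher in T24T, and ITGB1 and ITGB5 were lower. ITGB6, an epithelial partner of ITGAV, was low in both lines, at 0.200 and 0.252 RPKM in T24T against 0.0346 and 0.0297 RPKM in UMUC3. Its ratio of summed reads was 7.08 (3.63 to 15.4), from 68 and 10 reads. Only transcripts were measured, so which pairs form at the surface is not shown.

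ITGB4 (chr17:75721328-75757818, plus strand), which pairs with the ITGA6 product in hemidesmosomes, the junctions that hold basal cells to the basement membrane, was close to nothing in UMUC3. It had 0.941 and 1.10 RPKM in T24T, from 326 reads, against 0.00651 and 0 RPKM in UMUC3, where it had 1 read in all. The ratio was 340 (60.5 to 13451). Both lines therefore had far more ITGA6 than ITGB4 transcript. The 4 other hemidesmosome genes on the list, all tested, were all lower in T24T, as were 29.6% of all genes tested. COL17A1, a transmembrane collagen of hemidesmosomes, had 0.508 and 0.370 RPKM in T24T against 9.09 and 7.73 RPKM in UMUC3, a difference of -2.71 (SE 0.099). COL17A1 passed the filter only through UMUC3, where it was high, so its call is no separate support. DST and PLEC, the plakins that join hemidesmosomes to keratin filaments, differed by -0.97 and -0.89, and CD151, a tetraspanin partner of laminin receptors, by -0.31. Plectin and dystonin also act outside hemidesmosomes, on vimentin and microtubules. VIM, the vimentin gene, stood at 87.0 and 82.9 RPKM in T24T against 267 and 234 RPKM in UMUC3, and the part that cell state plays in these differences was not tested.

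The integrins of blood cells were scarce in both lines. ITGB2, the beta chain of leukocyte integrins, had 0.231 and 0.224 RPKM in T24T against 1.20 and 1.15 RPKM in UMUC3, a difference of -0.83 (SE 0.091, limma adjusted p = 0.000242). ITGB2-AS1 overlaps 303 of its bases on the opposite strand and had 36, 29, 190 and 204 reads in T24T with BCUC-1, T24T with vector, UMUC3 with BCUC-1 and UMUC3 with vector, nearly as many as ITGB2 itself, which had 37, 36, 186 and 207. Of the alpha chains that pair with ITGB2, ITGAX had 0 reads in both T24T libraries against 25 and 22 reads in UMUC3. Taking 3 reads as a floor for both T24T libraries together put ITGAX 15.0-fold lower in T24T. The exact 95% interval begins at 11.8-fold, so 15.0 rests on that floor and is not a lower limit. ITGAM had 8 reads in T24T against 47 in UMUC3, and ITGAD had 12 against 3. The level of ITGAM was 0.0224 and 0.0373 RPKM in T24T against 0.116 and 0.213 RPKM in UMUC3, and ITGAD reached at most 0.0766 RPKM. CD68 was lower in T24T as well (difference -3.92), while CD14 and CSF1R were close to 0 reads in both lines. The part of blood cell RNA in these values was not tested.

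Other low members were all higher in T24T by reads, to differing degrees. ITGA2B, the platelet fibrinogen receptor subunit, had 0.489 and 0.548 RPKM in T24T against 0.0159 and 0.00680 RPKM in UMUC3, with 136 reads against 3 and a ratio of 47.2 (15.8 to 232). The platelet marker GP1BA had 128 and 125 reads in T24T against 62 and 45 in UMUC3, whereas GP9 had 1 read in all and SELP had 2. ITGA7, a laminin receptor subunit of muscle, had 88 reads in T24T against 28 in UMUC3, a ratio of 3.27 (2.12 to 5.20). ITGB7 had 49 reads against 14, a ratio of 3.65 (1.98 to 7.15), but ZNF740 covers 1886 of its 4481 exonic bases on the opposite strand and had 1435 to 2157 reads, so the ITGB7 level is uncertain. ITGA9, a tenascin receptor subunit, had 11 reads against 1. ITGA9-AS1 overlaps 535 of its bases on the opposite strand and had 17 and 15 reads in T24T and 0 in both UMUC3 libraries. The ITGA9 level is thus uncertain too.

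The adhesion proteins that connect beta chains to actin were mostly lower in T24T. TLN2 (chr15:62390526-62844631, plus strand), the less abundant talin, differed most, with 0.225 and 0.232 RPKM in T24T against 2.91 and 2.50 RPKM in UMUC3. Its difference was -1.59 (SE 0.10, limma adjusted p = 2.18e-05), and the ratio of its summed reads was 0.0849 (95% interval 0.0724 to 0.0991). TLN1, the main talin, had 30.6 and 31.1 RPKM in T24T against 42.7 and 36.9 RPKM in UMUC3, a difference of -0.35 (SE 0.079, limma adjusted p = 0.00637). Neither talin overlapped between the lines, and TLN1 was the more abundant talin in both. The TLN1 call was lost when no filter on low values was used, at an unchanged difference.

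FERMT2, the kindlin found in most adherent cells, had 4.98 and 4.46 RPKM in T24T against 11.7 and 11.7 RPKM in UMUC3, a difference of -1.16 (SE 0.088, limma adjusted p = 4.86e-05). FERMT1, the epithelial kindlin, had 3.99 and 3.39 RPKM in T24T against 4.22 and 4.38 RPKM in UMUC3, a difference of -0.18 (SE 0.10) with a limma adjusted p of 0.165. That call changed with quantile normalization (-0.31). ITGB1 and FERMT2 were thus both called lower in T24T, whereas FERMT1, whose levels did not overlap either, lay closer in both lines and was not called. FERMT3, the kindlin of blood cells, had 4 and 5 reads in T24T against 10 and 12 in UMUC3.

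ZYX (chr7:143381080-143391111, plus strand), zyxin, a LIM protein that senses tension on actin, had 20.9 and 19.4 RPKM in T24T against 43.8 and 36.6 RPKM in UMUC3, a difference of -0.96 (SE 0.072, limma adjusted p = 4.70e-05). VCL, vinculin, had 28.9 and 29.4 RPKM in T24T against 46.9 and 42.2 RPKM in UMUC3, a difference of -0.59 (SE 0.073, limma adjusted p = 0.000405). The lines did not overlap at either gene. AP3M1 overlaps 1109 of the 9992 exonic bases of VCL on the opposite strand and had 2018 to 2905 reads, beside 6813 to 11163 for VCL. PTK2, focal adhesion kinase, had 12.2 RPKM in both T24T libraries against 17.1 and 16.0 RPKM in UMUC3, a difference of -0.41 (SE 0.076, limma adjusted p = 0.00277). ILK, the pseudokinase scaffold, had 20.3 and 19.4 RPKM in T24T against 24.8 and 21.4 RPKM in UMUC3, a difference of -0.20 (SE 0.074, limma adjusted p = 0.0442). The ILK call was lost without T24T BCUC-1 (-0.24), without T24T vector (-0.17) and without UMUC3 BCUC-1 (-0.10), and with no filter on low values (-0.20). TAF10 covers 2374 of the 3484 exonic bases of ILK on the opposite strand and had 1796 to 2182 reads, so ILK reads cannot be told apart from TAF10 reads there.

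PXN, paxillin, and PARVA, the parvin that binds ILK, were the adhesion proteins closest to equality. PXN had 33.7 and 32.9 RPKM in T24T against 35.1 and 34.6 RPKM in UMUC3, a difference of -0.06 (SE 0.065, limma adjusted p = 0.411), and PXN-AS1 overlaps 918 of its 7460 bases on the opposite strand with 2543 to 3241 reads. PARVA had 5.20 and 4.74 RPKM in T24T against 5.10 and 4.91 RPKM in UMUC3, a difference of -0.01 (SE 0.092, limma adjusted p = 0.930), and its levels overlapped. By reads, the T24T over UMUC3 ratio of PARVA was 0.994 (0.934 to 1.06).

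**Figure D3:**
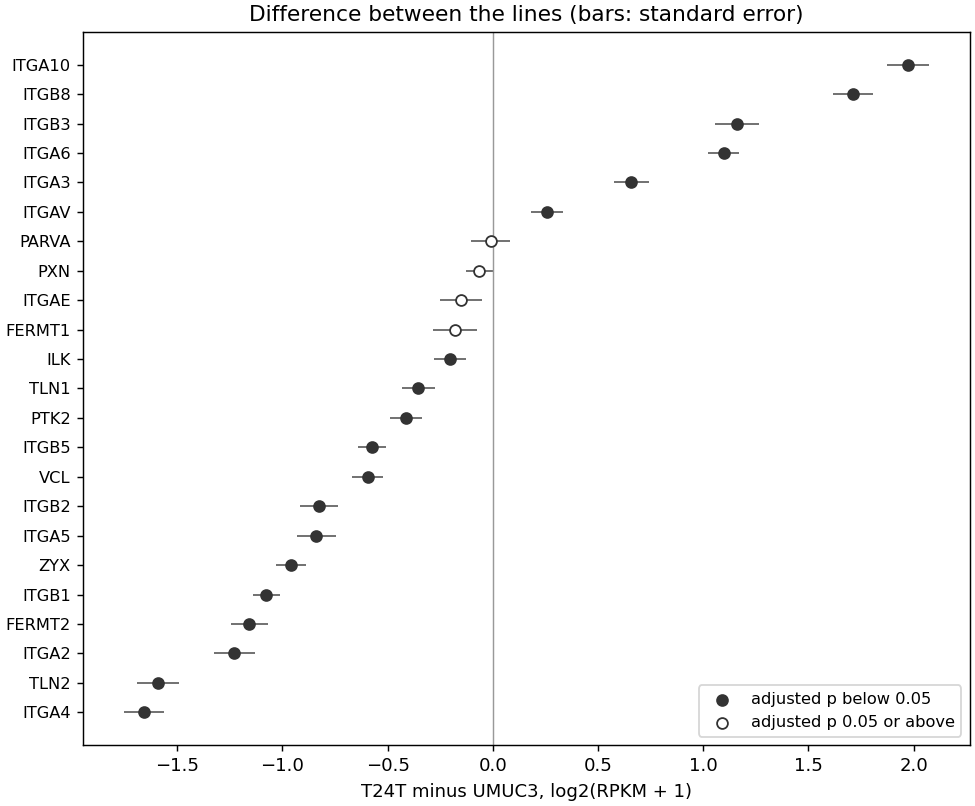
Difference between the lines, T24T minus UMUC3, on the log2(RPKM + 1) scale for the 23 genes tested, with bars for 1 standard error and filled points for a limma adjusted p below 0.05. The 6 genes higher in T24T are all integrin subunits, led by ITGA10 at 1.97, and the 7 adhesion proteins called lie between -1.59 for TLN2 and -0.20 for ILK. ITGA10, ITGB8, ITGA4, TLN2 and ITGB2 passed the filter only through the line in which they were high.

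Lists of the genes that act around these proteins were set beside them, with 40.8% of all genes higher and 29.6% lower in T24T. Of 13 tested genes for talin and actin linkage, 6 were higher and 5 lower. TNS3, a tensin, had 7.49 and 7.97 RPKM in T24T against 0.0671 and 0.0832 RPKM in UMUC3, a difference of 3.02 (SE 0.099). KANK1, which binds talin at the adhesion rim, differed by 2.31, and SORBS3, a vinculin-binding adaptor, by 1.03. ACTN4 and FLNA, which crosslink actin, were lower, with differences of -1.01 and -0.68. Not every tensin was higher in T24T: TNS1 had 1 read in each T24T library against 125 and 128 in UMUC3, and TNS2 overlapped between the lines. Of 17 tested FAK, Src and Cas signalling genes 8 were higher and 2 lower. The kinase SRC had 6.69 and 7.55 RPKM in T24T against 1.83 and 1.62 RPKM in UMUC3, a difference of 1.58 (SE 0.11), while FYN, a related kinase, and PAK1, a kinase downstream of Rac, differed by -1.21 and -1.35.

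Of 16 LIM domain adaptors, the group to which zyxin and paxillin belong, 4 were higher and 9 lower in T24T. CSRP1 had 1.20 and 0.999 RPKM in T24T against 7.44 and 7.47 RPKM in UMUC3, a difference of -2.01 (SE 0.10). PDLIM1, an actinin-binding protein, differed by -1.75 and LPXN, a paxillin relative, by -1.35. In the ILK complex 3 genes were tested: LIMS1, the PINCH adaptor, was higher (0.58), RSU1, which binds PINCH, was lower (-0.69), and PARVB did not pass (-0.23). Of 13 tested genes for integrin inactivation and trafficking 6 were higher and 2 lower, led by RAB11FIP1, a recycling adaptor, at 1.66, CIB1 at 0.99 and the GTPase ARF6 at 0.82. Of 12 tested integrin-associated membrane proteins 4 were higher and 4 lower. CAV1, caveolin, differed by 1.36, with 146 and 145 RPKM in T24T against 58.3 and 54.0 RPKM in UMUC3. PLAUR, the urokinase receptor, differed by -1.61, and CD47 by -0.80. All these calls are from the same limma fit with Benjamini-Hochberg adjustment over all genes, and FLNA and FERMT3 each stand on 2 lists. TNS3, KANK1, RAB11FIP1, DAB2, FYN and LPXN passed its filter only through the line in which they were high. Their calls, and their part in the counts of the lists, are therefore no separate support.

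Over both lines together, no difference between BCUC-1 and vector passed the test among the 23 members. In limma, 0 members and 0% of all 15415 genes were called, with the smallest Benjamini-Hochberg adjusted p at 0.104 over all genes and 0.998 among members. Without adjustment, 652 genes and 1 member had p under 0.05. In limma-voom on the recovered reads 13 genes and 0 members were called. Differences on the log2(RPKM + 1) scale, BCUC-1 minus vector, ran from -0.15 for ITGAV to 0.18 for ZYX, with standard errors of 0.063 to 0.10. The member with p under 0.05 was ZYX at a difference of 0.18 (SE 0.072) and a limma adjusted p of 0.998, higher with BCUC-1 in both lines. With the GC trend described further on removed, its difference was 0.11. With 1 library in each group this test has 1 residual degree of freedom. That residual is the difference between the lines in their BCUC-1 change, not a spread between replicates. A change in 1 line only, or a GC trend in 1 line only, thus enters the error. The lack of calls therefore does not show that BCUC-1 has no effect.

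Within a line the BCUC-1 and vector libraries were compared by the ratio of their RPKM with an exact 95% interval, wherever both libraries together held 100 reads or more. This compares 2 libraries, not the conditions, and no p is given. In T24T 25 members had enough reads, and 0 of them differed 1.5-fold either way, against 0.694% of 14120 genes. The interval lay above 1 for 5 members, against 5.67% of all genes, and below 1 for 2, against 10.7%. The median log2 ratio was -0.01 over these members and -0.02 over all genes. At 1000 reads or more in the pair, where intervals are narrow, 4 of 17 members lay above 1, against 8.72% of all genes. There 2 members lay below 1, against 12.3%.

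ITGA6 had the narrowest of the 5 intervals above 1, with 12377 reads and 80.3 RPKM with BCUC-1 against 11127 reads and 71.9 RPKM with vector, a ratio of 1.12 (95% interval 1.09 to 1.15). The others were the kindlins FERMT1 at 1.18 (1.03 to 1.34) and FERMT2 at 1.12 (1.02 to 1.22), PARVA at 1.10 (1.00 to 1.20) and ZYX at 1.08 (1.01 to 1.16). Both kindlins thus leaned the same way in T24T. ITGB8 was lower, with 767 reads with BCUC-1 against 877 with vector, a ratio of 0.878 (0.796 to 0.968), and so was ITGAV at 0.947 (0.904 to 0.992). ITGB1 was level, at 1.01 (0.993 to 1.03), as were TLN1 at 0.981 (0.950 to 1.01), VCL at 0.985 (0.952 to 1.02) and PTK2 at 0.999 (0.956 to 1.04). For these abundant genes a difference as large as 1.1-fold lay outside the interval. With medians made equal 8 intervals lay above 1 and 1 below, against 10.7% and 6.47% of all genes, and ITGAV was no longer among them.

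In UMUC3 21 members had enough reads, and 0 of them differed 1.5-fold, against 1.39% of 13795 genes. The interval lay above 1 for 11 members, against 21.8% of all genes, and below 1 for 2, against 15.4%. The median log2 ratio was 0.10 over the members and 0.03 over all genes. Among genes with at least 1000 reads, where intervals are narrow, the count was 9 of 17 members (52.9%) against 28.9% of all genes.

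ITGA3 had the highest ratio, with 28.2 RPKM with BCUC-1 against 23.4 RPKM with vector, a ratio of 1.21 (1.17 to 1.25). ZYX followed with 43.8 RPKM with BCUC-1 against 36.6 RPKM with vector, a ratio of 1.20 (1.14 to 1.26). Adhesion proteins above 1 were also TLN1 at 1.16 (1.12 to 1.19), TLN2 at 1.16 (1.07 to 1.27), ILK at 1.16 (1.09 to 1.24), VCL at 1.11 (1.08 to 1.14) and PTK2 at 1.07 (1.03 to 1.11). The integrin subunits above 1 were ITGA4 at 1.18 (1.03 to 1.35), ITGAE at 1.17 (1.02 to 1.34), ITGA5 at 1.14 (1.06 to 1.22) and ITGB5 at 1.07 (1.03 to 1.12). ITGAV had 14.1 RPKM with BCUC-1 against 16.6 RPKM with vector, a ratio of 0.848 (0.806 to 0.892). ITGA2 had 7.21 RPKM with BCUC-1 against 8.36 RPKM with vector, a ratio of 0.863 (0.802 to 0.927). ITGB1, the partner of most of these alpha chains, was level at 1.01 (0.994 to 1.02), as was ITGA6 at 0.982 (0.946 to 1.02).

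The lines have separate vector libraries. ZYX was above 1 and ITGAV below 1 in both, but with the GC trend described next removed, ZYX in UMUC3 (1.02, 0.971 to 1.07) and ITGAV in T24T (0.965, 0.921 to 1.01) included 1. ITGAV in T24T also included 1 with equal medians. ITGA6 and the kindlins were above 1 in T24T and included 1 in UMUC3, and ITGA3 and TLN1 were above 1 in UMUC3 and included 1 in T24T. Whether the lines differ in their response was not tested, since an interaction leaves no residual degree of freedom.

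**Figure D4:**
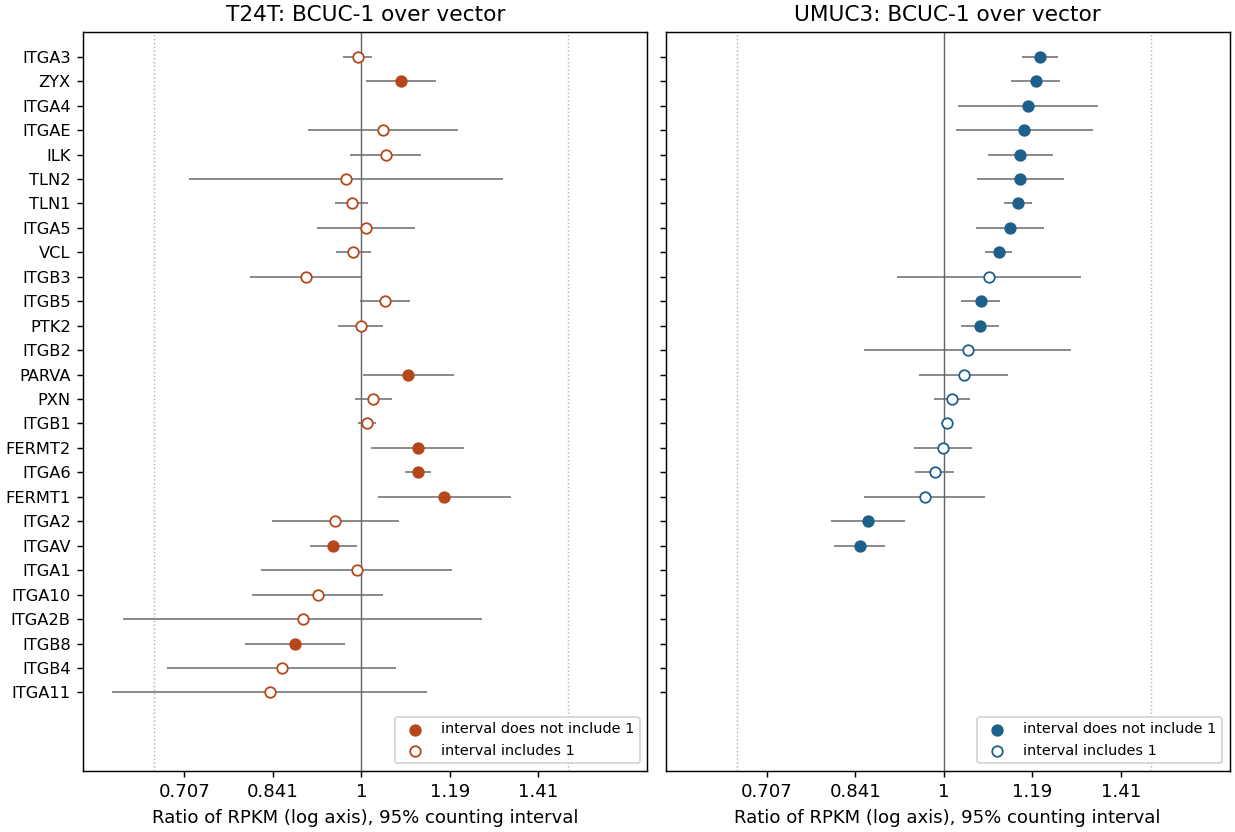
Ratio of RPKM, BCUC-1 over vector, in T24T (left) and UMUC3 (right) on a log axis, for genes whose 2 libraries hold 100 reads or more, with 95% counting intervals and filled points where the interval does not include 1; dotted lines mark 1.5-fold. All points lie within 1.5-fold, 5 filled points lie above 1 and 2 below it in T24T, and 11 lie above and 2 below it in UMUC3.

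GC content moved with the ratios in UMUC3. Across the 11831 genes with 100 reads and a GC value, Spearman's correlation of the log2 ratio with transcript GC was 0.597 in UMUC3, and across 12070 genes in T24T it was 0.018. These points share their libraries, so the correlation is a description. Among the 21 members in UMUC3 it was 0.655, and among the 25 in T24T -0.059. The members below 1 in UMUC3, ITGAV and ITGA2, have transcripts of 38.3% and 40.2% GC, while ZYX and ITGA3 have 64.9% and 61.3%. The 8 members under 45% GC had a median log2 ratio of 0.00 in UMUC3 and the 13 members over it one of 0.19.

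With the GC trend removed, 7 members in UMUC3 lay above 1 and 3 below. The median change in 20 GC bins was taken off for this, and 11.6% and 13.6% of all genes then lay above and below. Those shares were not matched to the members for read depth. ZYX then stood at 1.02 (0.971 to 1.07), ILK at 1.06 (0.993 to 1.13), ITGA5 at 1.05 (0.983 to 1.12), TLN2 at 1.09 (0.997 to 1.18), ITGAE at 1.08 (0.946 to 1.24) and ITGB5 at 0.993 (0.955 to 1.03). Those 6 genes therefore no longer had an interval clear of 1. ITGA3 at 1.06 (1.02 to 1.10), TLN1 at 1.05 (1.02 to 1.08), VCL at 1.11 (1.09 to 1.14), PTK2 at 1.07 (1.04 to 1.12) and ITGA4 at 1.18 (1.03 to 1.35) still did, and ITGB1 at 1.07 (1.05 to 1.08) and FERMT2 at 1.14 (1.08 to 1.20) were added. ITGAV at 0.933 (0.887 to 0.982) and ITGA2 at 0.915 (0.851 to 0.983) stayed below 1, joined by PXN at 0.909 (0.878 to 0.941). In T24T, GC removal left ITGB8 as the gene below 1 and gave 7 above it, ITGB1 and ITGB5 being added, against 8.71% of all genes above and 8.24% below.

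**Figure D5:**
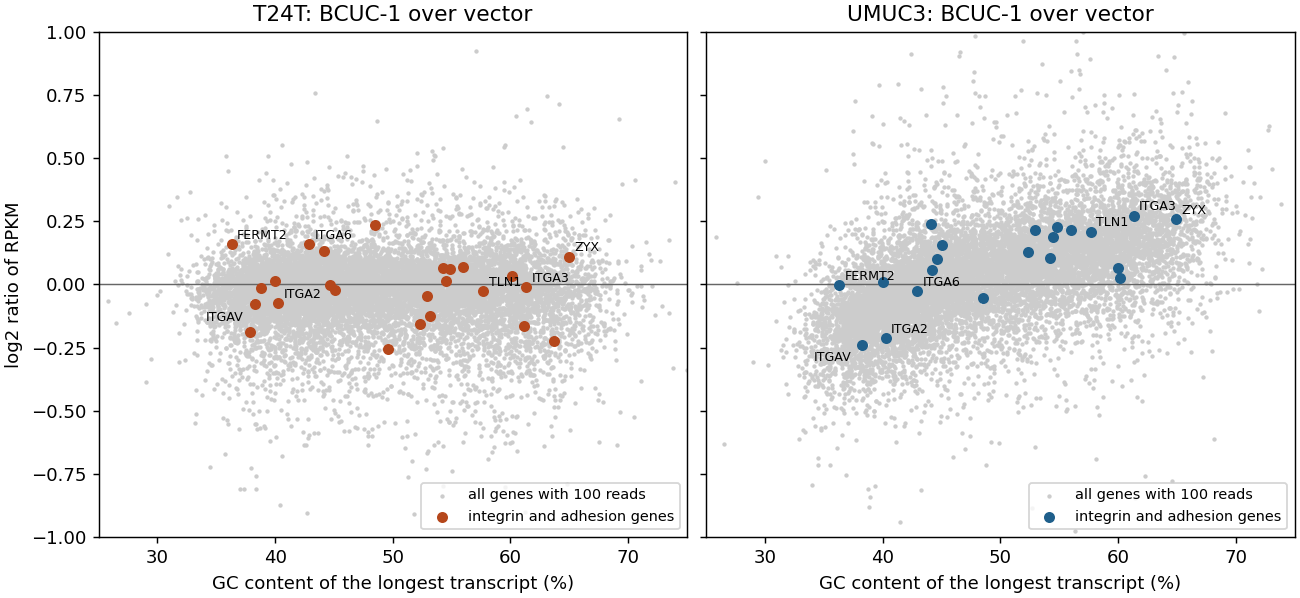
Log2 ratio of RPKM, BCUC-1 over vector, against the GC content in percent of each gene's longest transcript, in T24T (left) and UMUC3 (right), with grey points for all genes with 100 reads or more over both libraries and coloured points for integrin and adhesion genes; 4 genes in T24T and 13 in UMUC3 lie outside the axes. The grey cloud and the members slope upward in UMUC3, with a Spearman correlation of 0.597 over all genes, and are flat in T24T at 0.018.

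The counts of the partner lists varied in UMUC3, where 21.8% of all genes had an interval above 1 and 15.4% below. Of 14 talin and actin linkage genes 5 lay above and 3 below, with FLNA at 185 RPKM with BCUC-1 against 149 RPKM with vector, a ratio of 1.24 (1.22 to 1.25). All 4 hemidesmosome partners lay above, PLEC most, with 83.1 RPKM with BCUC-1 against 62.0 RPKM with vector, a ratio of 1.34 (1.32 to 1.36). Of 18 FAK, Src and Cas genes 8 lay above and 2 below, BCAR1, the Cas scaffold, at 1.22 (1.10 to 1.34). Of 16 LIM domain adaptors 7 lay above and 3 below, LPP, a zyxin relative, being at 0.898 (0.850 to 0.948). Of 13 trafficking genes 3 lay above and 1 below, SNX17, which returns integrins to the surface, at 1.20 (1.12 to 1.28). Of 13 membrane proteins 6 lay above and 3 below, the tetraspanin CD81 at 1.21 (1.13 to 1.28), and of 3 ILK complex genes 1 lay above, PARVB at 1.13 (1.02 to 1.25), and 1 below. Among the scarcer genes, KANK1 at 1.34 (0.953 to 1.90) and the LIM adaptor FHL3 at 1.46 (0.996 to 2.14) had intervals that include 1. GC content was not removed from these counts, and its part in them was not tested.

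In T24T the same lists had fewer intervals clear of 1, beside 5.67% above and 10.7% below over all genes. Of 15 talin and actin linkage genes 1 lay above and 3 below, of 19 FAK, Src and Cas genes 1 above and 1 below, and of 15 LIM adaptors 1 above and 2 below. LPP had 2.26 RPKM with BCUC-1 against 2.85 RPKM with vector, a ratio of 0.790 (0.736 to 0.849), and it was below 1 in both lines. FLNA and PLEC were level in T24T, at 0.995 (0.978 to 1.01) and 1.00 (0.982 to 1.03). Of 13 trafficking genes 1 lay above and 1 below, of 13 membrane proteins 0 above and 1 below, of 3 ILK complex genes 1 above and 0 below, and of 4 hemidesmosome partners 0 either way. No gene on these lists differed 1.5-fold in either line among those with 100 reads.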

How the data were processed

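Gene-level transcript values of 4 RNA-seq libraries were used, and the titles gave the groups. The authors' table gives, per the file headers, RPKM for each gene and a Length in bases (unit other), the exonic length over which the authors scaled. The aligner Bowtie 0.12.2 appears, per the submitters' processing notes, and its role, build, annotation and strand setting were not given in the sources used here, so reads of near-identical copies and of overlapping genes may be shared. All 34 genes share a start or end with GENCODE 29, so positions are on GRCh38. RPKM times Length was a whole multiple of 1 read for 100% of genes (tolerance 0.001 reads), which gave reads and depths, 22730112 to 26497894 per library. Without molecular identifiers, reads cannot be taken as independent molecules.

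The lines, and BCUC-1 over both lines, were tested with limma 3.58.1 (R 4.3.3, intensity trend, line and treatment in the model, 1 residual degree of freedom) on log2(RPKM + 1), two-sided, for all genes that 2 or more libraries held at 1 RPKM or above, with Benjamini-Hochberg adjustment over all genes. A fold on this scale understates the change of low genes. Ratios between libraries carry exact (Clopper-Pearson) 95% intervals from the reads. GC content was read from each symbol's longest GENCODE transcript and was had for 69.1% of all genes. Scripts ran in Python 3.11.15 and the test was checked on simulated data.

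All members are named. From each list of neighbouring genes the text names up to 3 called genes with the largest line difference and up to 2 with the largest mean BCUC-1 ratio. ACTN4, CD151, DAB2 and the marker genes beyond that rule were named after their values were seen, as were the 3 genes with printed promoters. A marker gene on the lists is not reported here. The members and lists were chosen with earlier results of these data known. Alternatives were limma-voom on the recovered reads, equal medians, quantile normalization, a pseudocount of 0.1, a floor of 5 RPKM or none, removal of the GC trend, no line term, other read minimums, and leaving out each library. Ratios of summed reads and scaling to reads outside mitochondrial genes were added after seeing the data.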

Additional observations from a re-analysis of the deposited data

How the results depend on the processing

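For the lines, 19 members were called, and 14 to 28 over the other settings that kept all libraries. Only 16 members were tested with a floor of 5 RPKM, 21 without a T24T library and 20 without a UMUC3 library. ITGA10 and ITGB8 were not tested without a T24T library, nor were ITGA4, TLN2 and ITGB2 without a UMUC3 library. No called line difference reversed, while that of PARVA, which was not called (-0.01), ran from -0.065 to 0.046 as a library was left out and was above 0 without T24T vector (0.046) or UMUC3 BCUC-1 (0.013). Over the 23 members, 198 of 213 line values under other settings kept direction and side of the threshold, 11 lost the call (ILK, ITGAV and TLN1) and 2 gained it (ITGAE and FERMT1, with quantile normalization). Quantile normalization moved the median line difference of all genes from 0.10 to 0. The calls over all genes were 10847, and 6780 with a floor of 5 RPKM, which tests 8830 genes. For BCUC-1 over both lines 0 genes were called, against 60 with a floor of 5 RPKM, 13 with limma-voom and 1 with a pseudocount of 0.1, and 0 members under each of these. In T24T 5 intervals lay above 1 and 2 below, against 8 and 1 with equal medians, and 1 below with the GC trend removed. In UMUC3 11 lay above 1, against 7 with the GC trend removed, and ITGB5 reversed there, with a log2 ratio of -0.0103 against 0.10. The 1.5-fold count in UMUC3 was 0, and 2 (ITGA10 and ITGAM, at 22 and 47 reads) with a minimum of 20 reads. Apart from what taking off the trend does by construction, the cause of these changes was not tested. Scaling to reads outside mitochondrial genes left the counts of members at 5 and 2 in T24T and 11 and 2 in UMUC3. The line term pairs each BCUC-1 library with its own vector library, and with no line term 0 members were called for BCUC-1 too. Depth limits the 10 members under 0.6 RPKM, and 1 library a group leaves no measure of variation between cultures.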
